A study of Mus musculus with 18 samples.

Results

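The 48 genes described here encode the machinery that builds the mitotic spindle, holds chromosomes to it and times their separation. They were chosen by symbol as known mitotic genes, with earlier results of these data already known. The 48 symbols were all found among the 55450 genes of the deposited count table, each at a single row. All 48 also passed the filter on low counts, which left 19186 genes for testing.

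Mitosis begins when cyclin B with Cdk1, aided by Polo-like and Aurora kinases, drives chromosome condensation and spindle assembly. Motors of the kinesin family build and shape the spindle, and the kinetochore, a protein complex on each centromere, binds the ends of its microtubules. Until every kinetochore is attached, the spindle checkpoint holds back the anaphase-promoting complex, and afterwards its activator Cdc20 lets the complex destroy cyclin B and securin. Most of these genes are transcribed late in the cell cycle. The pocket proteins pRb, p107 and p130 take part in repressing cell cycle genes in resting cells, and their promoters often hold a CHR element (TTTGAA) and CCAAT boxes. Resting mammary epithelium divides little, and carcinomas divide more.

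RNA was sequenced from 15 mammary tumors and 3 normal mammary glands, 1 library per mouse, all from female C57Bl/6 mice. Tumors were induced in adult mice with an adenovirus for Cre recombinase, which was given into the mammary ducts by way of the nipple. B1/P/Rbf mice (n = 5) carried Brca1fl/fl, Trp53fl/fl and TgK18GT121Tg/+, B1/P mice (n = 5) carried Brca1fl/fl and Trp53fl/fl, and P/Rbf mice (n = 5) carried Trp53fl/fl and TgK18GT121Tg/+. The transgene expresses, once Cre has acted, T121, an N-terminal fragment of the SV40 large T antigen that binds and inactivates the pocket proteins, and its keratin 18 promoter limits it to epithelial cells. Deletion of Trp53 was common to all tumor groups, so no tumor group had an intact Trp53. The normal glands (n = 3) came from wild type mice of the same strain, and their age was not given. Replicate numbers follow the order of the samples and have no other meaning.

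Total expected counts per library ranged from 27661173 to 37794889. Levels are given as CPM, that is, counts scaled by library size with TMM factors, and log2 CPM values carry a prior count of 2. Brca1 read 8.13 to 27.9 CPM in the B1/P tumors, 21.1 to 45.0 in the B1/P/Rbf tumors, 44.9 to 116 in the P/Rbf tumors and 4.61 to 5.99 in the glands, so it was lower in glands than in the tumors with the deletion. B1/P/Rbf tumor 3, with the highest value of its group at 45.0 CPM (21.1 to 27.9 in the other 4), is also the tumor in which RT-qPCR of the study gave a partial loss of Brca1 only. Trp53 read 6.75 to 24.3 CPM over all tumors and 54.4 to 71.8 in the glands. Whole-gene counts include exons outside the deleted part, so these values do not check the deletions. The sum of 8 epithelial markers was 1519.9 to 2092 CPM in glands, 1689 to 3798 in B1/P tumors, 2617 to 5353 in B1/P/Rbf tumors and 5066 to 9544 in P/Rbf tumors. An earlier analysis of these data took the libraries to fall into 2 sets, inferred from fold changes published with the study. No label names them, their membership was not derived again here, and the methods describe 1 pooled run. Set 1 is taken as the 5 B1/P/Rbf tumors with B1/P tumors 1 to 3, and set 2 as the 5 P/Rbf tumors, the glands and B1/P tumors 4 and 5. Only the B1/P group spans both sets, and fits with a term for them are given below as an alternative.

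RefSeq gave a window from 250 bases before to 50 after the transcription start (build GRCm38.p6) for 41 of the 48 genes. Entries for Ska1, Tpx2, Kif20a, Incenp, Spc24, Foxm1 and Aurkb were not matched. TTTGAA, searched on both strands, was present in 29 of the 41 windows (70.7%), against 20.2% of the 27025 genes in the RefSeq table and 15.2% of the 13271 of them that were tested here. In the 200 bases before the start alone, TTTGAA was present in 15 of 41 (36.6%) against 14.4% of all genes. CCAAT, also on both strands, was present in 31 of 41 (75.6%) against 41.1% of all genes. Both motifs stood together in 24 of 41 (58.5%) against 8.97% of all genes, and in 12 of 41 (29.3%) against 5.02% with the 200 bases before the start. The E2F forms TTTCCCGC, TTTCGCGC, TTTGCCGC and TTTGGCGC were found in 4 of 41 windows (9.76%), those of Cdk1, Cenpm, Kif15 and Kif18a. Their share was 2.61% over all genes and 4.12% over those tested here. Only Birc5, Mad2l1, Nuf2 and Pttg1 (9.76%) held none of these motifs, against 46.5% of all genes. A match describes letters and not a bound site.

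The 200 bases before the start are shown for 7 genes, 5′ to 3′ on the strand of the gene, with every TTTGAA and CCAAT, or their reverse complements TTCAAA and ATTGG, in capitals. Top2a, Cdc20, Ccnb2, Kif2c and Cenpk are shown as genes called higher in both T121 groups. Bub3 is shown as the gene with the smallest positive difference from normal gland, and Pttg1 as the single gene below it. The windows are chr11:99024190-99024389, chr4:118437344-118437543, chr9:70421555-70421754, chr4:117178773-117178972, chr13:104228411-104228610, chr7:131560170-131560369 and chr11:43425982-43426181, on the minus strand except for Cenpk and Bub3, whose windows are the first of 3 and of 2 in the table.
Top2a: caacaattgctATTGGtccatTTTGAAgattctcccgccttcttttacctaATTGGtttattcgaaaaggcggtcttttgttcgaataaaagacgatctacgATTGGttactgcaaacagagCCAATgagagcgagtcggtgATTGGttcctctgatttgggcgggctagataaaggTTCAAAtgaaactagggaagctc
Cdc20: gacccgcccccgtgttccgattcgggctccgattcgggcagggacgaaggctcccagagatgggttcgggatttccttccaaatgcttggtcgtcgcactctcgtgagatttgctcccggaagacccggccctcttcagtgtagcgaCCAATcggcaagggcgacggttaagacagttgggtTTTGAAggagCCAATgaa
Ccnb2: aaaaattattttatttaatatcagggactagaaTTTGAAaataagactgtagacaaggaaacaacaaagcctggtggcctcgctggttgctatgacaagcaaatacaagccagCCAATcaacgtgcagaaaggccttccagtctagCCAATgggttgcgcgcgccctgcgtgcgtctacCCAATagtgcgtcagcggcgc
Kif2c: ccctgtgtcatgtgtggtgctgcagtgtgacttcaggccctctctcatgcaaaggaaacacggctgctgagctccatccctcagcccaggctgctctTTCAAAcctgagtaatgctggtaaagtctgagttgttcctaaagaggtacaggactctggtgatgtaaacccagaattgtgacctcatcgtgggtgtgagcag
Cenpk: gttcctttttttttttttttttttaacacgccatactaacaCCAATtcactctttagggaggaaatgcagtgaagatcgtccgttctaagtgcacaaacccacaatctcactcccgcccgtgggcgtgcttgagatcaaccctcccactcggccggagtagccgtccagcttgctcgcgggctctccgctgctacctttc
Bub3: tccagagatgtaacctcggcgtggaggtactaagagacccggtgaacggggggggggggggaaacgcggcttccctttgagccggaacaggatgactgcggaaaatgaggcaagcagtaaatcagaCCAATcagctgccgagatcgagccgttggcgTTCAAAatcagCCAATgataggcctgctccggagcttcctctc
Pttg1: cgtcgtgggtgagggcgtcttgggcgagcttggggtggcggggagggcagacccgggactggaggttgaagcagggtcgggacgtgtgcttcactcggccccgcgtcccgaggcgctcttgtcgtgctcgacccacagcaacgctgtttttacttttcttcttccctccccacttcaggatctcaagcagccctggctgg
The Top2a window held 2 TTTGAA and 5 CCAAT matches, the Cdc20 window 1 and 2, the Ccnb2 window 1 and 3, the Kif2c window 1 and 0, the Cenpk window 0 and 1, and the Bub3 window 1 and 2. Neither motif was in the Pttg1 window. Those of Pttg1 and Kif2c precede the RefSeq start but lie inside the longer GENCODE gene spans (chr11:43420250-43426251 and chr4:117159639-117182639). The Bub3 window lies in larger part inside its GENCODE span (chr7:131560222-131571895), and the Cdc20 window reaches a few bases into its own (chr4:118432901-118437352). Among the 41 genes with a window, those with TTTGAA did not stand above those without it in the comparison of P/Rbf with B1/P tumors described below. The median log2 fold change was 0.99 for the 29 genes with the motif and 1.06 for the 12 without, and 18 and 8 of them were called. This split is a description with no test.

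Compared with normal gland, nearly all of the 48 genes were higher in each tumor model. In B1/P/Rbf tumors 47 of the 48 genes were higher and 1 was lower, with a median log2 fold change of 3.94, where the calls over all genes tested were 17.1% higher and 20.0% lower. In B1/P tumors 45 were higher and 1 lower, with a median of 3.30, against 16.8% and 16.9% of all genes. In P/Rbf tumors 47 were higher and 1 lower, with a median of 4.32, against 17.4% and 20.3% of all genes. The median over all genes tested lay at 0.051, 0.12 and 0.055 in the same order. These counts rest on edgeR's quasi-likelihood test with Benjamini-Hochberg adjustment over all 19186 genes, called at an adjusted p of 0.05 or less, and the 3 comparisons share the same 3 glands.

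The lower gene was Pttg1 in all 3 comparisons. Pttg1 encodes securin, the inhibitor of separase, the protease that opens the cohesin ring at anaphase. It read 21.1, 19.3, 18.1, 19.1 and 16.7 CPM in the B1/P/Rbf tumors, 15.2, 21.8, 11.0, 13.3 and 15.3 in the B1/P tumors, 24.3, 24.1, 27.7, 20.3 and 22.4 in the P/Rbf tumors and 46.4, 43.2 and 49.2 in the normal glands. Every gland lay above every tumor. The log2 fold change from gland was -1.29 ± 0.21 (SE, edgeR adjusted p = 0.00013) in B1/P/Rbf, -1.59 ± 0.21 (SE, edgeR adjusted p = 2.27e-05) in B1/P and -0.96 ± 0.21 (SE, edgeR adjusted p = 0.00162) in P/Rbf tumors. Espl1, which encodes separase itself, was higher in all tumor groups, at 40.0 to 65.4, 40.5 to 64.8 and 55.0 to 119 CPM in the same order of models and 3.99 to 4.48 in glands.

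The genes not called higher in B1/P tumors, besides Pttg1, were Bub3 and Spc25. Bub3, a checkpoint protein that binds phosphorylated Knl1 and also acts outside mitosis, was the most abundant of the 48 genes in gland by CPM. It read 108, 107, 107, 167 and 119.5 CPM in the B1/P/Rbf tumors, 58.6, 58.4, 90.2, 129.6 and 92.2 in the B1/P tumors, 136, 142, 80.7, 147 and 106 in the P/Rbf tumors and 52.3, 62.4 and 60.7 in the normal glands. B1/P tumors 1 and 2 lay within the range of the glands, and every other tumor lay above it. Its log2 fold change from gland was 1.06 ± 0.28 (SE, edgeR adjusted p = 0.0066) in B1/P/Rbf, 0.55 ± 0.27 (SE, edgeR adjusted p = 0.125) in B1/P and 1.07 ± 0.28 (SE, edgeR adjusted p = 0.00612) in P/Rbf tumors. Spc25 had the widest gland values of the 48 genes, with an SD of 0.70 in log2 CPM against a median SD of 0.17 over the genes. Its log2 fold change from gland in the B1/P model was 1.80 ± 0.72 (SE, edgeR adjusted p = 0.063), although every tumor lay above every gland, and the adjusted p ranged from 0.00573 without P/Rbf tumor 4 to 0.197 without normal gland 2. Its call in B1/P/Rbf tumors (edgeR adjusted p = 0.0135) was lost without normal gland 2 (edgeR adjusted p = 0.0602). Other fits changed calls of the B1/P model against gland. Spc25 was called there by DESeq2, without TMM and with only these groups in the fit (edgeR adjusted p down to 0.0121), and Bub3 without TMM, with the library-set term and within a set (edgeR adjusted p down to 0.0153). Cenpk, called at an edgeR adjusted p of 0.0258, lost its call without any 1 of the 3 glands (up to 0.11), within a set and with the library-set term (0.0721). Against gland in P/Rbf tumors, Bub3 lost its call with the log2 CPM filter of the study (edgeR adjusted p = 0.0578).

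The largest difference from gland in each model was that of Cenpf, a large protein of the outer kinetochore and fibrous corona. It read 108, 243, 145, 149 and 133 CPM in the B1/P/Rbf tumors, 98.5, 59.1, 85.5, 83.4 and 132 in the B1/P tumors, 79.2, 239, 153, 346 and 151 in the P/Rbf tumors and 5.04, 4.38 and 4.57 in the normal glands. Its log2 fold change was 5.06 ± 0.48 in B1/P/Rbf, 4.30 ± 0.46 in B1/P and 5.37 ± 0.49 (SE) in P/Rbf tumors, with edgeR adjusted p of 7.4e-07, 3.75e-06 and 4.4e-07. By role, the genes of the central spindle and cytokinesis had the highest medians, 4.47, 3.90 and 4.89 in the 3 models. The inner kinetochore genes had the lowest medians by role, 2.68, 2.30 and 3.08.

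The glands also held other tissue. The summed CPM of 8 adipocyte markers was 13008 to 17336 in glands and 13.5 to 222 in tumors, and that of 8 skeletal muscle markers was 25808 to 51079 in glands and 0.978 to 679 in tumors, with the 679 in B1/P tumor 5. Those of 8 lymphocyte markers were 582 to 836 and 17.0 to 140. All 8 markers of each of these lists were lower in every tumor group than in gland, and no marker was at 0 in every library of a group. In bulk RNA a smaller share of dividing cells and less mitotic RNA per cell cannot be told apart, and the part of these tissues in the gland values, that of Pttg1 included, was not tested.

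**Figure D1:**
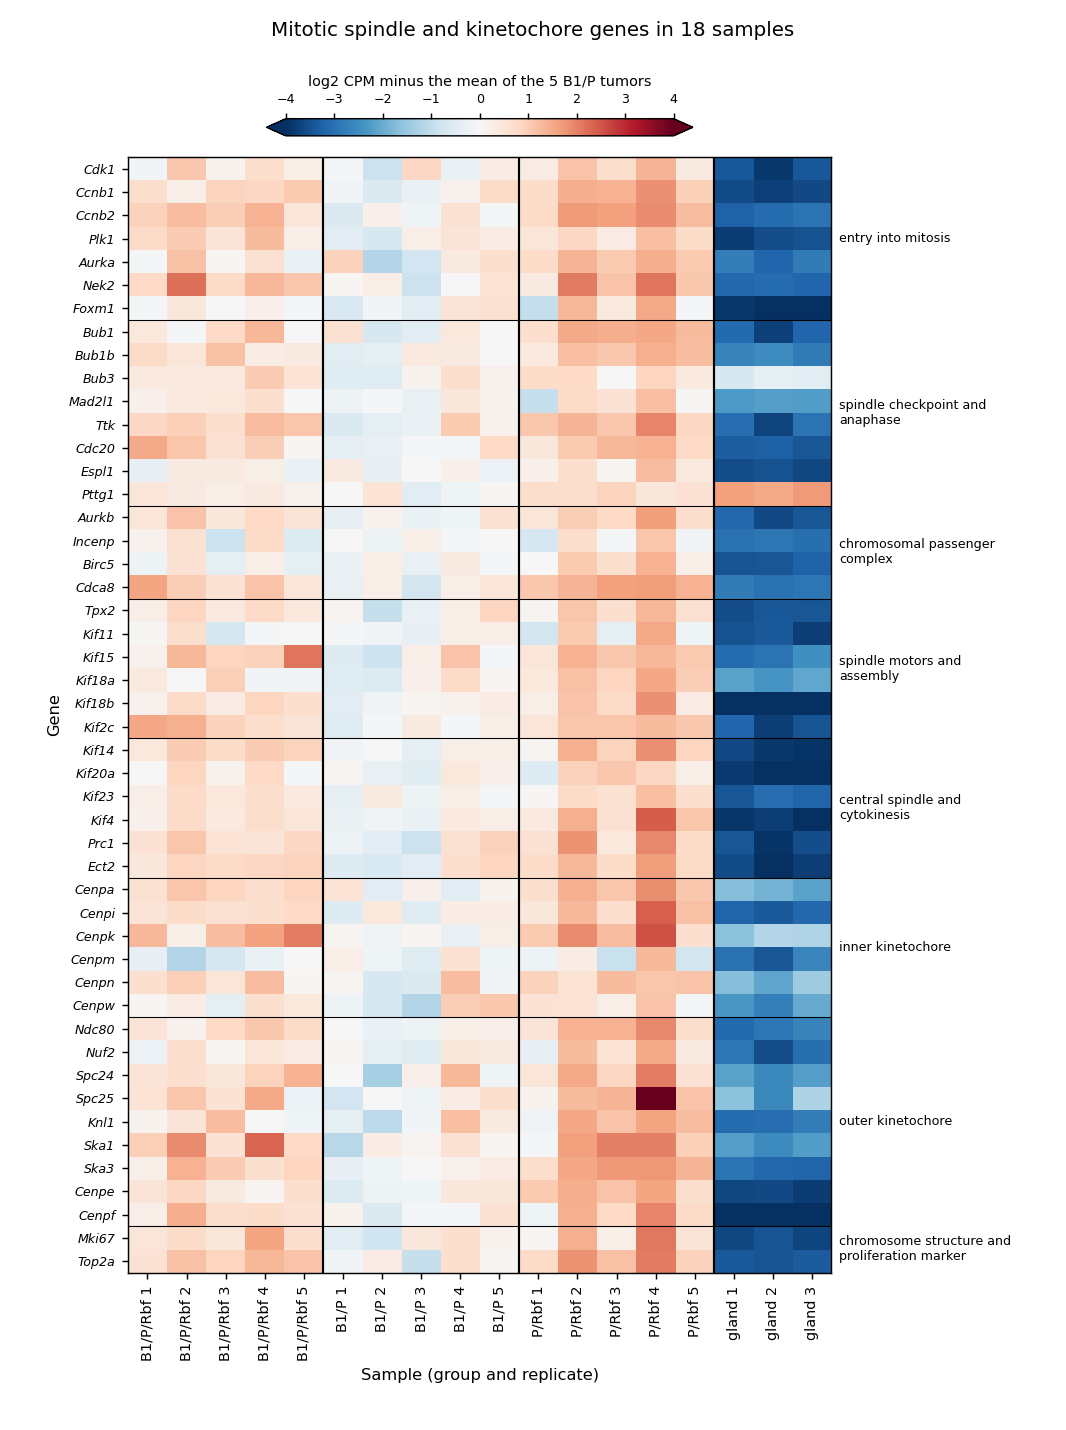
Log2 CPM of the 48 genes (rows, by role) in the 18 samples (columns), each minus the mean of the 5 B1/P tumors, with colors limited to 4 in either direction. All 3 glands are below every tumor in every row but those of Bub3 and Pttg1, and P/Rbf tumor 4 is the highest column, with the top tumor value for 38 of the 48 genes.

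The comparison of B1/P/Rbf with B1/P tumors asks what inactivation of the pocket proteins adds where both Brca1 and Trp53 are deleted. Of the 48 genes, 11 were higher in B1/P/Rbf tumors and none was lower, where 7.36% of all genes tested were higher and 9.29% lower. The 11 genes were Ccnb2, Nek2, Cdc20, Cdca8, Kif2c, Kif14, Cenpa, Cenpk, Ska1, Ska3 and Top2a. The median log2 fold change of the 48 genes was 0.58, with 46 above 0, against a median of -0.062 over all genes. For 7 genes (Nek2, Cdca8, Kif2c, Kif14, Cenpa, Cenpi and Ska1) the lowest B1/P/Rbf tumor exceeded the highest B1/P tumor, as it did for 5.00% of all genes. DESeq2 called 15 genes higher (10.2% of all genes), limma-voom with quantile normalization 13 (8.00%), and neither called any lower. A fit of only these 2 groups called 8 higher (5.86% of all genes), all among the 11. Without B1/P/Rbf tumor 3 the count was 9, with the calls of Kif14 and Cenpa lost, and the share of all genes in that fit is not given. None of the 48 was lower at an unadjusted p under 0.05 in edgeR either.

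P/Rbf tumors differ from B1/P tumors in carrying T121 and in keeping Brca1, so the 2 alterations cannot be told apart in this comparison. Here 28 of the 48 genes were higher and none was lower, where 8.43% of all genes were higher and 10.8% lower. The median log2 fold change was 0.97 with all 48 above 0, against -0.051 over all genes. For 13 genes the lowest P/Rbf tumor exceeded the highest B1/P tumor, as it did for 3.74% of all genes. DESeq2 called 32 genes higher (11.8% of all genes) and limma-voom 26 (8.23%), neither called any lower, and none was lower in edgeR at an unadjusted p under 0.05. A fit of only these 2 groups called 15 higher (3.90% of all genes), all among the 28. Both comparisons use the same 5 B1/P tumors, so they are not independent of each other.

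Both counts moved, in opposite directions, when a term for the set was added, which only the contrast of B1/P tumors 4 and 5 with tumors 1 to 3 informs. With this term B1/P/Rbf tumors were higher for 16 of the 48 genes (median 0.85), where 5.52% of all genes were called higher, and 8 of these were among the 11. The 3 calls lost were those of Cenpa (0.111), Cenpk (0.0523) and Ska1 (0.0607; edgeR adjusted p), and the 8 gained were those of Bub3, Ccnb1, Cenpe, Ect2, Kif15, Plk1, Prc1 and Ttk (edgeR adjusted p of 0.00324 to 0.0374). With it P/Rbf tumors were higher for only 4 (Ccnb2, Cdca8, Cenpa and Ska3; median 0.66), where 3.22% of all genes were called higher. The other 24 P/Rbf calls were lost, with edgeR adjusted p of 0.0591 (Ndc80) to 0.463 (Prc1). Between the assumed sets the B1/P tumors also differed in level. The sets were inferred from fold changes published for these same data, so this difference is no separate support for them. The mean log2 CPM of the 48 genes was 5.08, 4.98 and 5.07 in B1/P tumors 1 to 3 and 5.66 and 5.56 in tumors 4 and 5, and 23 genes were higher in both of the latter than in all of the former, as were 12.9% of all genes. Within set 1, B1/P/Rbf tumors exceeded B1/P tumors 1 to 3 without overlap for 28 genes, as they did for 9.08% of all genes. Within set 2, P/Rbf tumors exceeded B1/P tumors 4 and 5 without overlap for 16 genes, as they did for 11.8% of all genes. Fits within 1 set, added after the data were seen, called 6 and 5 genes higher, where 3.92% and 3.93% of all genes were called higher. The 6 were Ccnb1, Ccnb2, Ect2, Kif14, Prc1 and Ttk, of which only Ccnb2 and Kif14 were among the 11. Cdca8 (edgeR adjusted p = 0.0554) and Kif2c (edgeR adjusted p = 0.0606) were among the 9 not called there. Bub3, Cenpe, Kif15 and Plk1, gained with the term, were not called there either (edgeR adjusted p of 0.053 to 0.0788). All 5 of the P/Rbf calls (Bub1, Ccnb2, Cdca8, Cenpa and Ska3) were among the 28. Library set and mouse-to-mouse variation among 5 B1/P tumors cannot be told apart.

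**Figure D2:**
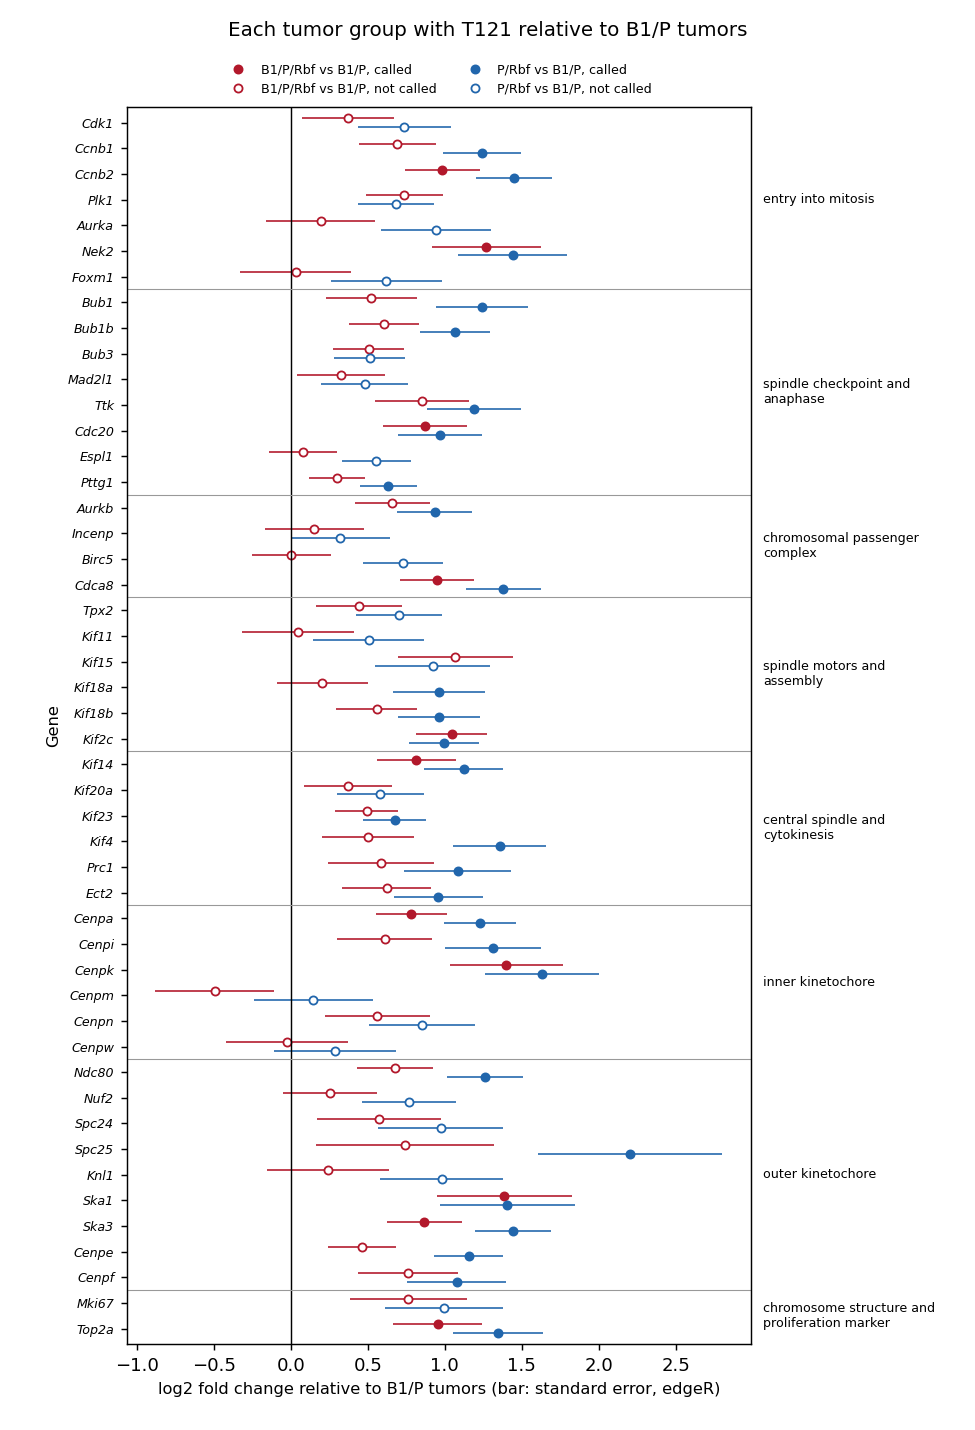
Log2 fold change with SE of each of the 48 genes, grouped by role, for B1/P/Rbf and P/Rbf tumors against B1/P tumors, with filled points for an edgeR adjusted p of 0.05 or less. Filled points number 11 for B1/P/Rbf and 28 for P/Rbf tumors, all of them to the right of 0.

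The counts by role that follow stand beside 7.36% and 8.43% of all genes called higher in B1/P/Rbf and P/Rbf tumors, and a single call in a role of 4 to 8 genes is not a result about that role. Genes of entry into mitosis were higher for 2 of 7 in B1/P/Rbf tumors and 3 of 7 in P/Rbf tumors, with medians of 0.69 and 0.94. Ccnb2, cyclin B2, had the largest rise of this role in P/Rbf tumors. It lies at chr9:70407692-70421547 and read 75.2, 91.9, 77.6, 104 and 54.8 CPM in the B1/P/Rbf tumors, 26.1, 45.1, 34.9, 59.9 and 38.3 in the B1/P tumors, 67.4, 129, 123, 146 and 91.8 in the P/Rbf tumors and 4.14, 4.61 and 4.98 in the normal glands. All P/Rbf tumors exceeded every B1/P tumor, as did 4 of the 5 B1/P/Rbf tumors. Against B1/P the log2 fold change was 0.98 ± 0.24 (SE, edgeR adjusted p = 0.0118) for B1/P/Rbf and 1.45 ± 0.25 (SE, edgeR adjusted p = 0.00135) for P/Rbf tumors, with exact two-sided permutation p of 0.0159 and 0.00794. Ccnb2 was called in both comparisons when any 1 library was left out and with the library-set term. Nek2, a centrosomal kinase, was also called in both, at 1.27 and 1.44, and Ccnb1, cyclin B1, for P/Rbf tumors (1.24 ± 0.25 (SE, edgeR adjusted p = 0.00383)). With the library-set term Nek2 kept its B1/P/Rbf call, at 1.43 (edgeR adjusted p = 0.0412), and lost that in P/Rbf tumors, at 1.23 (edgeR adjusted p = 0.129). Ccnb1 gained a B1/P/Rbf call with the term, at 1.07 (edgeR adjusted p = 0.0144), and lost its P/Rbf call, at 0.81 (edgeR adjusted p = 0.0894). RSEM had divided reads of Ccnb1 with other genes, since its counts were not whole in 16 samples. Nek2 lost its B1/P/Rbf call without B1/P/Rbf tumor 2 or B1/P tumor 3 (edgeR adjusted p up to 0.0735), and Ccnb1 passed there without B1/P tumor 5 (edgeR adjusted p = 0.0149).

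Cdk1, the kinase that cyclin B activates, read 90.7, 204, 107, 158 and 116 CPM in the B1/P/Rbf tumors, 94.9, 54.0, 172, 81.5 and 120.3 in the B1/P tumors, 122, 216, 159.6, 249 and 124 in the P/Rbf tumors and 9.15, 6.58 and 9.17 in the normal glands. The groups overlapped, and its log2 fold change was 0.37 ± 0.30 (SE, edgeR adjusted p = 0.426) for B1/P/Rbf and 0.74 ± 0.30 (SE, edgeR adjusted p = 0.095) for P/Rbf tumors. Plk1, which drives centrosome maturation and kinetochore attachment, read 76.0, 89.4, 64.2, 106 and 53.3 CPM in the B1/P/Rbf tumors, 32.3, 28.8, 53.2, 64.2 and 54.9 in the B1/P tumors, 61.9, 79.8, 55.5, 103 and 74.5 in the P/Rbf tumors and 3.17, 3.73 and 3.96 in the normal glands. Its differences lay close to the threshold, at 0.74 ± 0.25 (SE, edgeR adjusted p = 0.0503) for B1/P/Rbf and 0.68 ± 0.25 (SE, edgeR adjusted p = 0.0623) for P/Rbf tumors. Aurka, the Aurora kinase of the spindle poles, spread over B1/P tumors from 21.4 to 93.4 CPM, and read 47.2, 109, 51.8, 74.5 and 40.2 CPM in the B1/P/Rbf tumors, 93.4, 21.4, 29.0, 62.6 and 76.5 in the B1/P tumors, 81.8, 124, 102, 135 and 101 in the P/Rbf tumors and 7.15, 5.37 and 7.01 in the normal glands. In all, 4 of 5 P/Rbf tumors lay above all B1/P tumors, and the log2 fold change was 0.19 ± 0.35 (SE, edgeR adjusted p = 0.75) for B1/P/Rbf and 0.94 ± 0.36 (SE, edgeR adjusted p = 0.0712) for P/Rbf tumors.

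Foxm1, the transcription factor that drives many late cell cycle genes, read 98.1, 141, 102, 120.5 and 99.0 CPM in the B1/P/Rbf tumors, 68.5, 96.9, 77.3, 149 and 158 in the B1/P tumors, 53.7, 259, 136, 294 and 102 in the P/Rbf tumors and 7.11, 6.32 and 5.38 in the normal glands. All B1/P/Rbf tumors lay within the range of the B1/P tumors, with log2 fold change 0.031 ± 0.36 (SE, edgeR adjusted p = 0.968) for B1/P/Rbf and 0.62 ± 0.36 (SE, edgeR adjusted p = 0.235) for P/Rbf tumors. Its counts were not whole in 13 samples. Calls of this role near the threshold turned on the method and on single libraries. DESeq2 called Plk1 in both comparisons (DESeq2 adjusted p = 0.0399 in P/Rbf tumors). Limma-voom called Plk1 in B1/P/Rbf tumors and Aurka in P/Rbf tumors (limma-voom adjusted p = 0.046 for Aurka). Plk1 passed in B1/P/Rbf tumors without B1/P/Rbf tumor 5, B1/P tumor 4 or P/Rbf tumors 1, 3 or 4 (edgeR adjusted p down to 0.0318) and in P/Rbf tumors without B1/P tumor 4 or P/Rbf tumors 1 or 3 (down to 0.0382). It passed with the library-set term in B1/P/Rbf tumors, at 1.03 (edgeR adjusted p = 0.0223), and not in P/Rbf tumors, at 0.33 (edgeR adjusted p = 0.522). Within set 1 Plk1 was not called in B1/P/Rbf tumors, at 1.06 (edgeR adjusted p = 0.0689). In P/Rbf tumors Cdk1 passed without B1/P tumor 3 (edgeR adjusted p = 0.0343), and Aurka without B1/P tumor 1 (edgeR adjusted p = 0.0348).

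Checkpoint and anaphase genes were higher for 1 of 8 (Cdc20) in B1/P/Rbf and 5 of 8 (Bub1, Bub1b, Ttk, Cdc20 and Pttg1) in P/Rbf tumors, with medians of 0.51 and 0.80. Cdc20, the activator of the anaphase-promoting complex and the target of the checkpoint, lies at chr4:118432901-118437352. It read 162, 124, 86.5, 112 and 60.0 CPM in the B1/P/Rbf tumors, 43.0, 46.6, 54.4, 55.4 and 97.9 in the B1/P tumors, 77.1, 117, 142, 149 and 97.7 in the P/Rbf tumors and 5.67, 5.86 and 5.21 in the normal glands. The highest B1/P value, that of tumor 5, was exceeded in B1/P/Rbf tumors 1, 2 and 4. The log2 fold change was 0.87 ± 0.27 (SE, edgeR adjusted p = 0.0364) for B1/P/Rbf and 0.97 ± 0.27 (SE, edgeR adjusted p = 0.0204) for P/Rbf tumors. Exact two-sided permutation tests gave p of 0.0397 and 0.0238. The B1/P/Rbf call was lost when any 1 of B1/P/Rbf tumors 1, 2 and 4 or B1/P tumors 1 to 4 was left out, with edgeR adjusted p up to 0.0951, and held with the library-set term, at 1.18 (edgeR adjusted p = 0.0198). The P/Rbf call held without any 1 library and was lost with that term, at 0.61 (edgeR adjusted p = 0.275). Neither call held in a fit of only the 2 groups compared (edgeR adjusted p = 0.076 for B1/P/Rbf). Within a set neither was called (edgeR adjusted p = 0.0525 for B1/P/Rbf and 0.232 for P/Rbf).

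Bub1, the kinase that recruits checkpoint proteins to the kinetochore, showed the largest rise of this role in P/Rbf tumors. It lies at chr2:127801122-127831865 and read 36.7, 26.7, 48.5, 69.3 and 28.1 CPM in the B1/P/Rbf tumors, 42.1, 17.7, 20.7, 37.3 and 27.9 in the B1/P tumors, 43.6, 78.8, 75.4, 80.0 and 66.8 in the P/Rbf tumors and 3.13, 2.03 and 3.01 in the normal glands. All P/Rbf values exceeded all B1/P values, although P/Rbf tumor 1 at 43.6 CPM was close to B1/P tumor 1 at 42.1. Against B1/P it differed by 0.52 ± 0.30 (SE, edgeR adjusted p = 0.241) for B1/P/Rbf and 1.24 ± 0.30 (SE, edgeR adjusted p = 0.00929) for P/Rbf tumors, with exact two-sided permutation p of 0.198 and 0.00794. With the library-set term the P/Rbf difference of Bub1 was 1.08 (edgeR adjusted p = 0.109) and not called, and in the fit within set 2 it was 1.08 (edgeR adjusted p = 0.046) and called. Bub1b, which encodes the checkpoint effector BubR1, also separated P/Rbf from B1/P tumors, at 79.6 to 161 against 45.4 to 79.5 CPM (1.06 ± 0.23 (SE, edgeR adjusted p = 0.00479)), and 0.91 (edgeR adjusted p = 0.0726) with that term. Ttk, the Mps1 kinase at the head of the checkpoint, read 27.7, 30.3, 24.5, 36.6 and 33.6 CPM in the B1/P/Rbf tumors, 10.4, 11.8, 12.9, 31.9 and 17.6 in the B1/P tumors, 32.7, 40.1, 32.5, 60.6 and 27.3 in the P/Rbf tumors and 1.84, 1.15 and 1.96 in the normal glands. B1/P tumor 4 reached the level of the T121 tumors, and the log2 fold change was 0.85 ± 0.30 (SE, edgeR adjusted p = 0.0633) for B1/P/Rbf and 1.19 ± 0.31 (SE, edgeR adjusted p = 0.013) for P/Rbf tumors. In B1/P/Rbf tumors Ttk passed without B1/P tumor 4 or P/Rbf tumor 4 (edgeR adjusted p down to 0.00701), and Bub1b without P/Rbf tumor 1 (edgeR adjusted p = 0.0378). Ttk was called with the library-set term in B1/P/Rbf tumors, at 1.38 (edgeR adjusted p = 0.0081), and not in P/Rbf tumors, at 0.64 (edgeR adjusted p = 0.23).

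Mad2l1, the Mad2 protein that binds Cdc20 while kinetochores are unattached, had the smallest difference of this role in P/Rbf tumors. It read 61.6, 70.5, 72.1, 82.4 and 53.5 CPM in the B1/P/Rbf tumors, 46.6, 50.2, 43.0, 72.5 and 59.1 in the B1/P tumors, 28.2, 91.5, 79.7, 124 and 55.1 in the P/Rbf tumors and 10.8, 11.5 and 11.2 in the normal glands. P/Rbf tumor 1 at 28.2 CPM was the lowest of all 15 tumors, and the log2 fold change was 0.33 ± 0.28 (SE, edgeR adjusted p = 0.461) for B1/P/Rbf and 0.48 ± 0.28 (SE, edgeR adjusted p = 0.241) for P/Rbf tumors. It passed in P/Rbf tumors without that tumor (edgeR adjusted p = 0.0325). Bub3, whose values are given above, differed from B1/P by 0.51 ± 0.23 (SE, edgeR adjusted p = 0.144) for B1/P/Rbf and 0.51 ± 0.23 (SE, edgeR adjusted p = 0.126) for P/Rbf tumors. B1/P tumor 4, at 129.6 CPM, was above all but 1 of the B1/P/Rbf tumors, and without it both differences passed, with edgeR adjusted p of 0.0433 and 0.0383. Its differences with the library-set term were 0.82 (edgeR adjusted p = 0.0374) and 0.14 (edgeR adjusted p = 0.782), and within set 1 the former was 0.84 and not called (edgeR adjusted p = 0.0726). Pttg1, lower in tumors than in gland, exceeded its B1/P level in P/Rbf tumors, at 0.63 ± 0.18 (SE, edgeR adjusted p = 0.0241). The call was lost without B1/P tumor 3 or P/Rbf tumor 3 (edgeR adjusted p up to 0.0557) and with the library-set term, at 0.73 (edgeR adjusted p = 0.0725). Pttg1 in B1/P/Rbf tumors differed by 0.30 ± 0.18 (SE, edgeR adjusted p = 0.279). Espl1 passed in neither comparison (0.078 and 0.56).

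**Figure D3:**
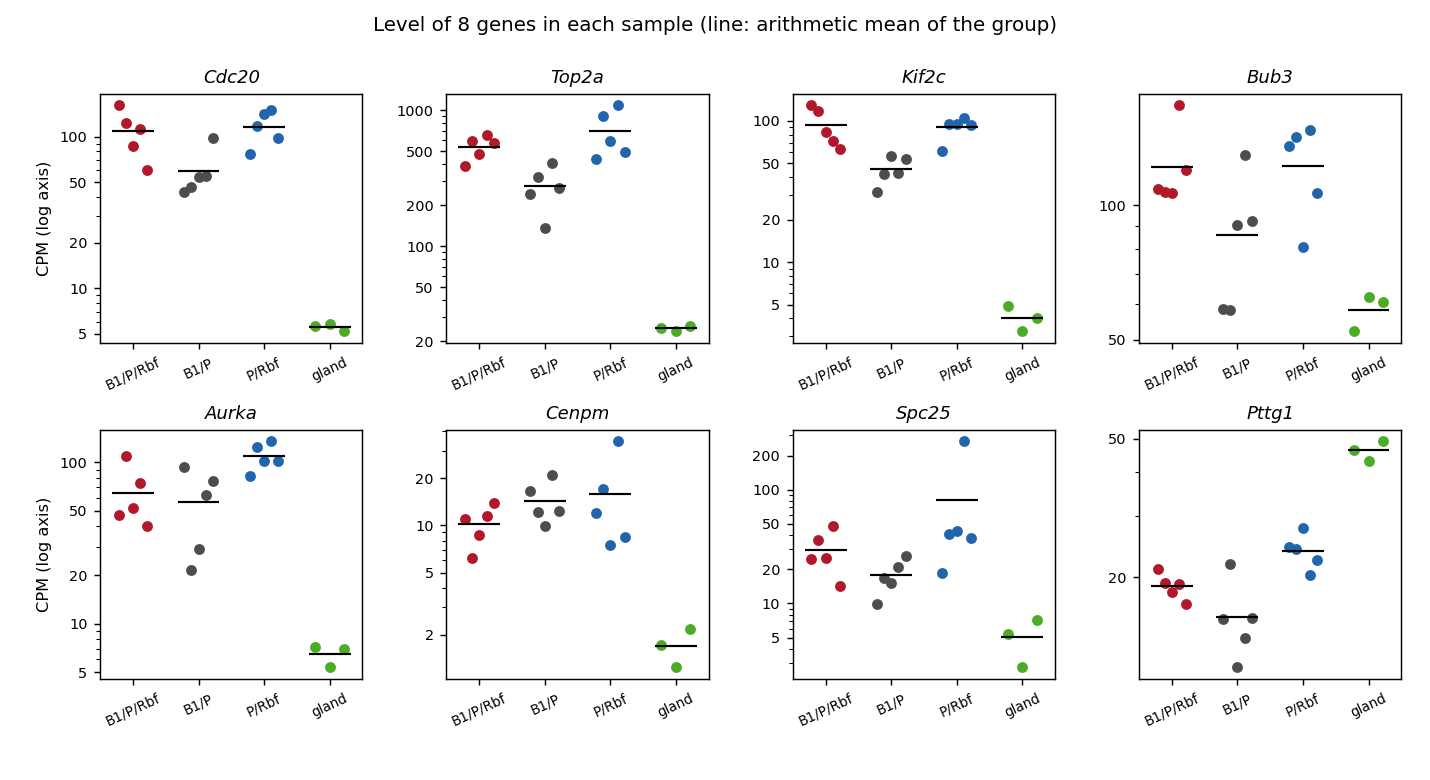
CPM on a log axis in each of the 18 samples for Cdc20, Top2a, Kif2c, Bub3, Aurka, Cenpm, Spc25 and Pttg1, with a line at each group's arithmetic mean. Kif2c does not overlap between B1/P and either T121 group, Spc25 reaches 268 CPM in P/Rbf tumor 4, and Pttg1 is highest in the glands.

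The chromosomal passenger complex moves from centromeres to the midzone, corrects wrong attachments and guides cytokinesis. It had 1 of 4 genes higher in B1/P/Rbf tumors and 2 of 4 in P/Rbf tumors, with medians of 0.41 and 0.83. Cdca8, which encodes borealin, read 107, 72.3, 54.1, 80.4 and 51.0 CPM in the B1/P/Rbf tumors, 29.4, 43.9, 21.8, 43.9 and 50.3 in the B1/P tumors, 76.5, 93.6, 114, 114 and 94.3 in the P/Rbf tumors and 5.12, 4.48 and 4.87 in the normal glands. Both T121 groups lay above the B1/P tumors without overlap, although B1/P/Rbf tumor 5 at 51.0 CPM was close to B1/P tumor 5 at 50.3. Its log2 difference from B1/P was 0.95 ± 0.24 (SE, edgeR adjusted p = 0.0133) for B1/P/Rbf and 1.38 ± 0.24 (SE, edgeR adjusted p = 0.0016) for P/Rbf tumors, and both calls held without any 1 library and with the library-set term. Aurkb, the kinase of the complex, read 59.8, 93.5, 58.1, 74.2 and 60.2 CPM in the B1/P/Rbf tumors, 33.6, 47.3, 35.4, 37.8 and 64.8 in the B1/P tumors, 58.9, 84.0, 73.4, 135 and 67.1 in the P/Rbf tumors and 4.73, 3.44 and 3.89 in the normal glands. B1/P tumor 5 overlapped both other groups. On the log2 scale its difference was 0.66 ± 0.24 (SE, edgeR adjusted p = 0.0721) for B1/P/Rbf and 0.93 ± 0.24 (SE, edgeR adjusted p = 0.0142) for P/Rbf tumors, and the B1/P/Rbf difference passed without B1/P tumor 5 or P/Rbf tumor 4 (edgeR adjusted p down to 0.0285). The P/Rbf call was lost with the library-set term, at 0.71 (edgeR adjusted p = 0.178).

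Incenp, the scaffold of the complex, passed in neither comparison. It read 118, 162, 57.6, 177 and 72.5 CPM in the B1/P/Rbf tumors, 107, 91.0, 125, 99.0 and 105 in the B1/P tumors, 65.2, 170.5, 101, 225 and 96.7 in the P/Rbf tumors and 13.3, 14.0 and 12.9 in the normal glands. The B1/P tumors were close together, with the lowest SD of the 48 genes in that group (0.17 in log2 CPM), and both T121 groups spanned them. Its log2 fold change was 0.15 ± 0.32 (SE, edgeR adjusted p = 0.786) for B1/P/Rbf and 0.32 ± 0.32 (SE, edgeR adjusted p = 0.509) for P/Rbf tumors. Birc5, survivin, gave 0.0031 in B1/P/Rbf and 0.73 ± 0.26 (SE, edgeR adjusted p = 0.0584) in P/Rbf tumors. It passed in P/Rbf tumors without B1/P/Rbf tumor 2 or P/Rbf tumors 1 or 5 (edgeR adjusted p down to 0.0226). Whether the 4 genes of the complex differ from one another was not tested.

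Spindle motors and assembly genes were higher for 1 of 6 (Kif2c) in B1/P/Rbf and 3 of 6 (Kif2c, Kif18a and Kif18b) in P/Rbf tumors, with medians of 0.50 and 0.94. Kif2c encodes MCAK, a kinesin that takes microtubules apart at their ends and frees wrong attachments. It lies at chr4:117159639-117182639 and read 129.9, 118, 83.5, 72.7 and 63.4 CPM in the B1/P/Rbf tumors, 31.6, 42.0, 56.9, 42.7 and 53.4 in the B1/P tumors, 61.7, 95.3, 95.1, 106 and 93.3 in the P/Rbf tumors and 4.89, 3.24 and 4.03 in the normal glands. Neither T121 group overlapped the B1/P tumors. Differences from B1/P were 1.04 ± 0.23 (SE, edgeR adjusted p = 0.00583) for B1/P/Rbf and 0.99 ± 0.23 (SE, edgeR adjusted p = 0.00727) for P/Rbf tumors. Exact two-sided permutation p was 0.00794 in both comparisons, the smallest that 5 against 5 samples allow. Both calls held without any 1 library, and with the library-set term the values were 1.10 (edgeR adjusted p = 0.0178) and 0.91 (edgeR adjusted p = 0.0789).

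Kif11, the Eg5 motor that pushes spindle poles apart, had the smallest difference of this role. It read 104, 163, 63.7, 96.4 and 98.9 CPM in the B1/P/Rbf tumors, 98.2, 93.1, 79.8, 119 and 120.3 in the B1/P tumors, 60.4, 207, 77.5, 290.0 and 89.2 in the P/Rbf tumors and 8.99, 9.75 and 7.28 in the normal glands. P/Rbf tumors 2 and 4 stood well above the other P/Rbf tumors, and the groups overlapped, with log2 fold change 0.046 ± 0.36 (SE, edgeR adjusted p = 0.949) for B1/P/Rbf and 0.51 ± 0.36 (SE, edgeR adjusted p = 0.335) for P/Rbf tumors. Kif15, another motor that holds the poles apart, had its highest value in B1/P/Rbf tumor 5. It read 30.2, 67.9, 48.1, 50.9 and 118 CPM in the B1/P/Rbf tumors, 18.8, 15.0, 32.3, 58.9 and 25.5 in the B1/P tumors, 37.1, 69.9, 55.9, 67.0 and 55.0 in the P/Rbf tumors and 3.09, 3.40 and 4.87 in the normal glands. The log2 fold change was 1.07 ± 0.37 (SE, edgeR adjusted p = 0.0593) for B1/P/Rbf and 0.92 ± 0.37 (SE, edgeR adjusted p = 0.0901) for P/Rbf tumors. B1/P tumor 4 was the highest of its group, and without it Kif15 passed in both comparisons. The edgeR adjusted p then reached 0.0192 in P/Rbf tumors, and in B1/P/Rbf tumors, where leaving out B1/P/Rbf tumor 1 also let it pass, the lowest was 0.0125. Kif15 stood, with the library-set term, at 1.52 (edgeR adjusted p = 0.0286) and 0.43 (edgeR adjusted p = 0.593), and within set 1 the former was 1.55 and not called (edgeR adjusted p = 0.0788). Kif18a and Kif18b, which limit chromosome movement and microtubule length, were called in P/Rbf tumors at 0.96 and 0.96. Kif18a lost its call without any of 7 libraries and Kif18b without P/Rbf tumor 4, with edgeR adjusted p up to 0.0786 and 0.055. The Kif18a libraries were B1/P tumors 1, 2, 3 and 5 and P/Rbf tumors 2, 4 and 5. Both were also lost with the library-set term, at 0.59 and 0.74 (edgeR adjusted p = 0.339 and 0.2). Tpx2, the activator of Aurka on the spindle, passed in neither, at 0.44 and 0.71, and passed in P/Rbf tumors without B1/P tumor 5 or P/Rbf tumor 1 (edgeR adjusted p down to 0.0196).

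Central spindle and cytokinesis genes were higher for 1 of 6 (Kif14) in B1/P/Rbf tumors and 5 of 6 (Kif14, Kif23, Kif4, Prc1 and Ect2) in P/Rbf tumors, with medians of 0.54 and 1.02. Kif4, a chromosome-bound motor that sets the length of the midzone with Prc1, had the largest P/Rbf value of this role. It lies on the X chromosome at chrX:100625737-100727214 and read 54.7, 80.4, 61.7, 77.1 and 66.4 CPM in the B1/P/Rbf tumors, 39.5, 43.1, 39.4, 61.9 and 56.1 in the B1/P tumors, 62.4, 126, 71.7, 253 and 102 in the P/Rbf tumors and 3.13, 3.40 and 2.88 in the normal glands. No P/Rbf tumor overlapped the B1/P tumors, with P/Rbf tumor 4 at 253 CPM. Against B1/P it differed by 0.50 ± 0.30 (SE, edgeR adjusted p = 0.266) for B1/P/Rbf and 1.36 ± 0.30 (SE, edgeR adjusted p = 0.00627) for P/Rbf tumors. The P/Rbf call held without any 1 library and was lost with the library-set term, at 1.06 (edgeR adjusted p = 0.108). Kif20a, the motor that carries the passenger complex to the midzone, had the smallest P/Rbf value. It read 98.8, 179.7, 109, 172 and 93.4 CPM in the B1/P/Rbf tumors, 107, 80.1, 70.5, 133 and 114 in the B1/P tumors, 68.9, 188, 207, 175 and 117 in the P/Rbf tumors and 6.84, 4.84 and 5.55 in the normal glands. P/Rbf tumor 1 alone lay below all B1/P tumors, the log2 fold change was 0.37 ± 0.28 (SE, edgeR adjusted p = 0.395) for B1/P/Rbf and 0.58 ± 0.29 (SE, edgeR adjusted p = 0.157) for P/Rbf tumors, and without P/Rbf tumor 1 the P/Rbf difference passed (edgeR adjusted p = 0.0413).

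Kif14, a midbody kinesin, separated B1/P/Rbf from B1/P tumors at 33.6 to 51.3 against 19.2 to 30.0 CPM, and its log2 fold change was 0.81 ± 0.26 (SE, edgeR adjusted p = 0.0371) for B1/P/Rbf and 1.12 ± 0.26 (SE, edgeR adjusted p = 0.00705) for P/Rbf tumors. The B1/P/Rbf call was lost without any 1 of B1/P/Rbf tumors 2 to 5 or B1/P tumors 1 to 3 (edgeR adjusted p up to 0.084) and held with the library-set term, at 0.98 (edgeR adjusted p = 0.0422), while that term took the P/Rbf call, at 0.90 (edgeR adjusted p = 0.107). Prc1, the bundler of midzone microtubules, and Ect2, the activator of RhoA at the cleavage furrow, were called in P/Rbf tumors at 1.08 and 0.96. Both were lost without B1/P tumors 1, 2 or 3 or P/Rbf tumors 2 or 4 (edgeR adjusted p up to 0.0992 and 0.0746). Ect2 passed in B1/P/Rbf tumors without B1/P tumor 5 (edgeR adjusted p = 0.0445). With the library-set term Prc1 read 1.22 (edgeR adjusted p = 0.0272) and Ect2 1.28 (edgeR adjusted p = 0.00324) in B1/P/Rbf tumors, both called, and 0.46 (edgeR adjusted p = 0.463) and 0.32 (edgeR adjusted p = 0.444) in P/Rbf tumors, neither called. Kif23, MKLP1 of centralspindlin, was called in P/Rbf tumors at 0.67 and lost without B1/P tumors 1, 3 or 5 or P/Rbf tumor 4 (edgeR adjusted p up to 0.0773) and with the library-set term, at 0.59 (edgeR adjusted p = 0.191).

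Inner kinetochore genes were higher for 2 of 6 (Cenpa and Cenpk) in B1/P/Rbf and 3 of 6 (Cenpa, Cenpi and Cenpk) in P/Rbf tumors, with medians of 0.59 and 1.04. Cenpk, a subunit of the constitutive centromere network, had the largest difference of this role in both. It lies at chr13:104228611-104252392 and read 13.1, 6.07, 12.3, 16.1 and 21.6 CPM in the B1/P/Rbf tumors, 5.66, 4.68, 5.45, 4.26 and 6.18 in the B1/P tumors, 10.8, 19.6, 12.2, 30.5 and 8.27 in the P/Rbf tumors and 1.64, 2.29 and 2.23 in the normal glands. The P/Rbf tumors exceeded every B1/P tumor, as did 4 of the 5 B1/P/Rbf tumors. Its log2 difference from B1/P was 1.40 ± 0.37 (SE, edgeR adjusted p = 0.0157) for B1/P/Rbf and 1.63 ± 0.37 (SE, edgeR adjusted p = 0.00664) for P/Rbf tumors, held without any 1 library, and fell just short of the threshold with the library-set term, at 1.39 (edgeR adjusted p = 0.0523) and 1.64 (edgeR adjusted p = 0.0614). Cenpm, a subunit of the same network, had the lowest log2 fold change of this role in both. It read 11.0, 6.18, 8.63, 11.4 and 13.8 CPM in the B1/P/Rbf tumors, 16.6, 12.2, 9.85, 21.0 and 12.3 in the B1/P tumors, 12.1, 17.2, 7.44, 34.5 and 8.37 in the P/Rbf tumors and 1.72, 1.24 and 2.17 in the normal glands. B1/P tumors 1 and 4 exceeded every B1/P/Rbf tumor, and the log2 fold change was -0.50 ± 0.39 (SE, edgeR adjusted p = 0.405) for B1/P/Rbf and 0.15 ± 0.39 (SE, edgeR adjusted p = 0.822) for P/Rbf tumors. Without P/Rbf tumor 4, at 34.5 CPM, the P/Rbf value was -0.35 (edgeR adjusted p = 0.477).

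Cenpa, the histone H3 variant that marks the centromere, was called in both comparisons without overlap of the groups, at 0.78 ± 0.23 (SE, edgeR adjusted p = 0.0284) for B1/P/Rbf and 1.23 ± 0.23 (SE, edgeR adjusted p = 0.00251) for P/Rbf tumors. It read 36.6 to 73.2 CPM in B1/P, 77.0 to 108 in B1/P/Rbf and 78.3 to 184 in P/Rbf tumors. The B1/P/Rbf call was lost without B1/P/Rbf tumors 2, 3 or 5 or B1/P tumors 2 or 4 (edgeR adjusted p up to 0.0701) and with the library-set term, at 0.68 (edgeR adjusted p = 0.111), while the P/Rbf call held without any 1 library and with the library-set term. Cenpi had no overlap between either T121 group and the B1/P tumors and was called in P/Rbf tumors, at 0.61 ± 0.31 (SE, edgeR adjusted p = 0.185) for B1/P/Rbf and 1.31 ± 0.31 (SE, edgeR adjusted p = 0.00847) for P/Rbf tumors. With the library-set term the P/Rbf difference of Cenpi was 1.08 (edgeR adjusted p = 0.118). For this gene the B1/P/Rbf tumors were the most even, with the lowest SD of the 48 (0.11 in log2 CPM). Cenpn and Cenpw passed in neither, with differences of 0.56 and 0.85 for Cenpn and -0.024 and 0.29 for Cenpw. Both Cenpw values turned sign with the library-set term, to 0.89 (edgeR adjusted p = 0.0935) and -0.48 (edgeR adjusted p = 0.428). Cenpn passed in both without B1/P tumor 4 (edgeR adjusted p = 0.027 and 0.00735).

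Outer kinetochore genes were higher for 2 of 9 (Ska1 and Ska3) in B1/P/Rbf and 6 of 9 (Ndc80, Spc25, Ska1, Ska3, Cenpe and Cenpf) in P/Rbf tumors, with medians of 0.68 and 1.15. The Ndc80 complex, made of Ndc80, Nuf2, Spc24 and Spc25, is the main microtubule coupler. Spc25 lies at chr2:69193895-69206194 and read 24.7, 36.4, 25.0, 47.9 and 14.3 CPM in the B1/P/Rbf tumors, 9.92, 16.9, 15.1, 20.7 and 26.2 in the B1/P tumors, 18.5, 41.1, 43.6, 268 and 37.5 in the P/Rbf tumors and 5.35, 2.75 and 7.21 in the normal glands. P/Rbf tumor 4 stood at 268 CPM (10198 expected counts), where the other 14 tumors read 9.92 to 47.9. On the log2 scale its difference was 0.74 ± 0.58 (SE, edgeR adjusted p = 0.407) for B1/P/Rbf and 2.20 ± 0.60 (SE, edgeR adjusted p = 0.0175) for P/Rbf tumors, and without P/Rbf tumor 4 the latter fell to 0.99 (edgeR adjusted p = 0.0816) and was not called. It was also not called with the library-set term, at 1.80 (edgeR adjusted p = 0.186). The SD of Spc25 in P/Rbf tumors, 1.43 in log2 CPM, was the largest of the 48 genes in any group.

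Nuf2, the partner of Ndc80, read 25.8, 48.1, 32.2, 42.0 and 38.4 CPM in the B1/P/Rbf tumors, 31.6, 23.3, 21.7, 41.3 and 38.5 in the B1/P tumors, 24.2, 73.0, 44.0, 85.9 and 39.2 in the P/Rbf tumors and 3.99, 2.52 and 3.69 in the normal glands. P/Rbf tumors 2, 3 and 4 exceeded all B1/P tumors, and the log2 fold change was 0.25 ± 0.31 (SE, edgeR adjusted p = 0.608) for B1/P/Rbf and 0.77 ± 0.31 (SE, edgeR adjusted p = 0.0866) for P/Rbf tumors. It passed in P/Rbf tumors without P/Rbf tumor 1 (edgeR adjusted p = 0.0254). Ndc80 itself lay above B1/P in every P/Rbf tumor, 37.3 to 99.7 against 22.1 to 31.1 CPM, and its log2 fold change was 0.68 ± 0.25 (SE, edgeR adjusted p = 0.069) for B1/P/Rbf and 1.26 ± 0.25 (SE, edgeR adjusted p = 0.00323) for P/Rbf tumors. In B1/P/Rbf tumors it passed without P/Rbf tumors 1 or 4 (edgeR adjusted p down to 0.04). Its P/Rbf value with the library-set term was 1.06 (edgeR adjusted p = 0.0591). Spc24 differed by 0.57 and 0.97 and passed in P/Rbf tumors without B1/P tumor 4 (edgeR adjusted p = 0.0154).

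Ska1 and Ska3, of the complex that tracks shortening microtubule ends, rose in both comparisons, Ska1 by 1.39 ± 0.44 (SE, edgeR adjusted p = 0.0386) for B1/P/Rbf and 1.41 ± 0.44 (SE, edgeR adjusted p = 0.0331) for P/Rbf tumors and Ska3 by 0.87 ± 0.24 (SE, edgeR adjusted p = 0.0221) for B1/P/Rbf and 1.44 ± 0.25 (SE, edgeR adjusted p = 0.00136) for P/Rbf tumors. Ska1 read 2.16 to 7.10 CPM in B1/P tumors, 7.11 to 23.8 in B1/P/Rbf and 4.52 to 19.4 in P/Rbf tumors. Both Ska1 calls turned on single libraries, with edgeR adjusted p up to 0.111 without any 1 of B1/P/Rbf tumors 2 and 4 or B1/P tumors 1, 3 and 5, and up to 0.0727 without any 1 of B1/P tumors 1, 3 and 5 or P/Rbf tumors 2, 3 and 4. With the library-set term neither Ska1 call held, at 1.59 (edgeR adjusted p = 0.0607) and 1.14 (edgeR adjusted p = 0.243). Ska3 lost its B1/P/Rbf call without B1/P/Rbf tumor 2 or B1/P tumor 1 (edgeR adjusted p up to 0.0695), and its P/Rbf call held without any 1 library and with the library-set term.

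Cenpe, the kinesin that moves chromosomes to the spindle equator, exceeded its B1/P range in each P/Rbf tumor, 116 to 222 against 50.6 to 102 CPM, with log2 fold change 0.46 ± 0.22 (SE, edgeR adjusted p = 0.165) for B1/P/Rbf and 1.15 ± 0.22 (SE, edgeR adjusted p = 0.00287) for P/Rbf tumors. Cenpe was called with the library-set term in B1/P/Rbf tumors, at 0.82 (edgeR adjusted p = 0.0233), and not in P/Rbf tumors, at 0.75 (edgeR adjusted p = 0.0687). Within set 1 its B1/P/Rbf difference was 0.84 and not called (edgeR adjusted p = 0.053). Cenpf differed by 0.76 ± 0.32 (SE, edgeR adjusted p = 0.116) for B1/P/Rbf and 1.08 ± 0.32 (SE, edgeR adjusted p = 0.0286) for P/Rbf tumors, and its P/Rbf call was lost without B1/P tumors 2, 3 or 4 or P/Rbf tumors 2 or 4 (edgeR adjusted p up to 0.0854) and with the library-set term, at 0.84 (edgeR adjusted p = 0.238). Knl1, the scaffold on which Bub1 and Bub3 gather, differed by 0.24 and 0.98, and passed in P/Rbf tumors without B1/P tumor 4 or P/Rbf tumor 1 (edgeR adjusted p down to 0.0203).

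Top2a, topoisomerase II alpha, which untangles sister chromatids, and Mki67, the Ki-67 antigen used to stain dividing cells, completed the list. Top2a lies at chr11:98992943-99024189 and read 387, 588, 474, 659 and 569.8 CPM in the B1/P/Rbf tumors, 242, 324, 137, 410.4 and 269 in the B1/P tumors, 437, 897, 590.0, 1090.3 and 495 in the P/Rbf tumors and 25.1, 23.8 and 25.9 in the normal glands. The P/Rbf tumors exceeded every B1/P tumor, as did 4 of the 5 B1/P/Rbf tumors. Differences from B1/P were 0.95 ± 0.29 (SE, edgeR adjusted p = 0.0313) for B1/P/Rbf and 1.34 ± 0.29 (SE, edgeR adjusted p = 0.00513) for P/Rbf tumors, with exact two-sided permutation p of 0.0159 and 0.00794. The B1/P/Rbf call was lost without B1/P/Rbf tumors 2, 4 or 5 or B1/P tumors 1, 3 or 5 (edgeR adjusted p up to 0.0674). With the library-set term the values were 1.19 (edgeR adjusted p = 0.0298) and 1.05 (edgeR adjusted p = 0.0945).

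Mki67 lies at chr7:135689784-135716361 and read 529, 631, 510.0, 1134 and 605 CPM in the B1/P/Rbf tumors, 275, 218, 519, 582 and 414 in the B1/P tumors, 386, 1011, 442, 1619.8 and 539.8 in the P/Rbf tumors and 30.2, 34.4 and 29.5 in the normal glands. The highest were B1/P/Rbf tumor 4 and P/Rbf tumors 2 and 4, and the groups overlapped. The log2 fold change was 0.76 ± 0.38 (SE, edgeR adjusted p = 0.181) for B1/P/Rbf and 0.99 ± 0.38 (SE, edgeR adjusted p = 0.0763) for P/Rbf tumors, and the P/Rbf difference passed without P/Rbf tumor 1 (edgeR adjusted p = 0.0368). Per kilobase of exon, Mki67 (62.4 CPM per kb as a mean of the 15 tumors), Top2a (56.0), Cdc20 (50.9) and Ccnb2 (50.7) had the highest levels of the 48 genes. The lowest levels per kilobase were those of Kif18a (1.79), Cenpk (2.25) and Cenpw (2.93).

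Across the list, 4 of the 11 B1/P/Rbf calls (Ccnb2, Cdca8, Kif2c and Cenpk) and 19 of the 28 P/Rbf calls held when any 1 of the 18 libraries was left out. The number of genes called ranged from 4 (without B1/P/Rbf tumor 2) to 15 (without P/Rbf tumor 4) for B1/P/Rbf and from 20 (without P/Rbf tumor 4) to 36 (without P/Rbf tumor 1) for P/Rbf tumors. B1/P/Rbf calls also fell to 7 without B1/P/Rbf tumor 4 and to 6 without B1/P tumor 1 or B1/P tumor 3. How many of all genes were called in each of these fits is not given. Whether the moves were particular to the list or followed calls over all genes was therefore not tested.

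The comparison of B1/P/Rbf with P/Rbf tumors asks what deletion of Brca1 adds to Trp53 deletion and T121. None of the 48 genes was called in edgeR, DESeq2 or limma-voom. Calls over all genes were 0.219% higher and 0.0625% lower in edgeR, 3.09% and 2.26% in DESeq2 and 0.109% and 0.0261% in limma-voom. Values leaned one way, with 45 of the 48 below 0 and a median log2 fold change of -0.40, against -0.011 over all genes. The size of this lean turned on single libraries. The median was -0.53 without P/Rbf tumor 1 and -0.16 without P/Rbf tumor 4. The study reports the other direction for its cell cycle and DNA replication gene sets, higher in B1/P/Rbf than in P/Rbf tumors. That result came from gene set enrichment over other lists of genes, with the Mcm genes common to both sets. No Mcm gene is among the 48, so genes and measure differ from those used here. At an unadjusted p under 0.05 in edgeR, 12 of the 48 were lower in B1/P/Rbf tumors, as were 8.01% of all genes. The smallest adjusted p was that of Cenpe, at -0.69 ± 0.22 (SE, edgeR adjusted p = 0.144). Kif4 (-0.85 ± 0.30 (SE, edgeR adjusted p = 0.173)) and Birc5 (-0.73 ± 0.26 (SE, edgeR adjusted p = 0.178)) followed. The extremes were Spc25 (-1.46 ± 0.59 (SE, edgeR adjusted p = 0.227)) and Kif15 (0.15 ± 0.37 (SE, edgeR adjusted p = 0.896)). No gene separated these 2 groups without overlap, where 1.71% of all genes did with B1/P/Rbf higher and 1.31% with it lower. The 2 groups lie wholly in different library sets, and with the library-set term, which rests on the B1/P tumors, the median turned to 0.11.

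Tumors differed as a whole, and not only gene by gene. The mean log2 CPM of the 48 genes was 5.71, 6.06, 5.75, 6.07 and 5.75 in the B1/P/Rbf tumors, 5.08, 4.98, 5.07, 5.66 and 5.56 in the B1/P tumors, 5.59, 6.50, 6.11, 6.91 and 5.97 in the P/Rbf tumors and 2.34, 2.19 and 2.35 in the glands. P/Rbf tumors thus spanned the widest range. P/Rbf tumor 4 was the highest of its group for 43 genes and the highest of all 15 tumors for 38, and P/Rbf tumor 1 was the lowest of its group for 36. B1/P tumors 1, 2 and 3 were the lowest of all tumors for 13, 16 and 9 genes. The median SD of a gene within a group was 0.38 in B1/P/Rbf, 0.47 in B1/P, 0.47 in P/Rbf tumors and 0.17 in glands, in log2 CPM.

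**Figure D4:**
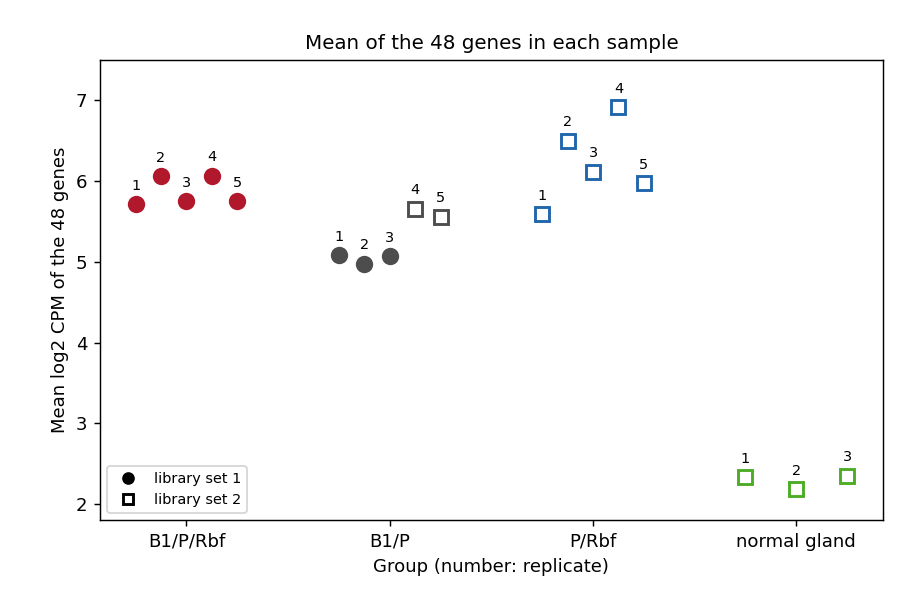
Mean log2 CPM of the 48 genes in each sample, by group, with filled circles for library set 1 and open squares for set 2. The B1/P tumors of set 1 sit at 4.98 to 5.08 and those of set 2 at 5.56 and 5.66, P/Rbf tumors range from 5.59 to 6.91, and the glands lie at 2.19 to 2.35.

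Markers of other cells also varied between tumor groups. Summed fibroblast markers read 2546 to 12773 CPM in B1/P tumors, with tumor 2 the highest, 833 to 4739 in B1/P/Rbf and 1256 to 4000.1 in P/Rbf tumors, and 1 and 3 of the 8 markers were lower in the T121 groups than in B1/P, where 9.29% and 10.8% of all genes were lower. Macrophage markers summed to 407 to 3198 CPM in B1/P tumors, again with tumor 2 the highest, against 270.2 to 915 in the other 2 models, and of the 8 markers Cd163 and Mrc1 were lower in P/Rbf tumors and none was called in B1/P/Rbf tumors. Adipocyte markers summed to 36.8 to 61.6 CPM in B1/P, 37.1 to 222 in B1/P/Rbf and 13.5 to 56.3 in P/Rbf tumors, with Lep and Lipe higher in B1/P/Rbf and Fabp4 lower in P/Rbf than in B1/P tumors. None of the 8 lymphocyte markers and none of the 8 endothelial markers was called in either. Of the 8 epithelial markers, 2 were higher than in B1/P tumors in the B1/P/Rbf model and 5 in the P/Rbf model, where 7.36% and 8.43% of all genes were higher. Of the 8 skeletal muscle markers, 6 and 7 were lower in the T121 groups than in B1/P, and B1/P tumor 5, at a sum of 679 CPM, stood apart from the other B1/P tumors (1.98 to 10.4), the B1/P/Rbf tumors (5.02 to 22.8) and the P/Rbf tumors (0.978 to 4.19). The part of these differences in the mitotic gene values was not tested.

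Of 96 other mitotic genes in 5 lists, 21 were higher and 2 lower when B1/P/Rbf tumors were set against B1/P, with a median log2 fold change of 0.49, and 40 were higher and 1 lower in P/Rbf tumors, with a median of 0.77. The shares over all genes were 7.36% higher and 9.29% lower in the former and 8.43% and 10.8% in the latter. These counts rest on the edgeR fit of all libraries without the library-set term. No alternative or leave-one-out fit is given for these lists. Of the other inner kinetochore and CENP-A loading genes, 5 of 15 and 8 of 15 were higher, led in both by Cenps (1.28 ± 0.30 and 2.16 ± 0.31, SE). Of the other outer kinetochore and corona genes, 4 of 13 and 6 of 13 were higher, led by Kntc1, of the complex that brings dynein to kinetochores (1.00 ± 0.29, SE), and by Mis12 (1.15 ± 0.21, SE). Among the other spindle, midzone and mitotic kinase genes, 11 of 33 and 19 of 33 were higher, led by Wee1, the kinase that holds back Cdk1 (1.53 ± 0.22, SE), and by Pbk (1.82 ± 0.39, SE).

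Condensin and cohesin, which shape and join chromatids, gave 1 of 17 higher in B1/P/Rbf tumors (Ncapd3, 1.32 ± 0.28, SE), a share near the 7.36% of all genes. In P/Rbf tumors 6 of 17 were higher and 1 lower, led by Smc4 (1.37 ± 0.30, SE) and Pds5b (-1.01 ± 0.31, SE). The anaphase-promoting complex, the ligase that Cdc20 activates, had the lowest medians of the 5 lists. Of its 18 genes 2 were lower in B1/P/Rbf tumors, Anapc7 the most (-0.73 ± 0.24, SE), and 1 was higher in P/Rbf tumors (Fzr1, 0.83 ± 0.22, SE), shares near the 9.29% and 8.43% of all genes. Its median log2 fold change was 0.13 and 0.16, beside 0.51 and 0.80 for the checkpoint and anaphase genes above. All values named for these lists in the tumor comparisons had an edgeR adjusted p of 0.0447 or less.

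Against normal gland, 77, 67 and 75 of the 96 were higher and 3, 2 and 2 lower in the 3 models, in the order B1/P/Rbf, then B1/P, then P/Rbf, with medians of 2.32, 2.00 and 2.85. Over all genes 17.1%, 16.8% and 17.4% were higher and 20.0%, 16.9% and 20.3% lower. Spindle, midzone and mitotic kinase genes were higher almost without exception, 33, 32 and 32 of 33, led by Cdc25c, the phosphatase that activates Cdk1 (5.05, 4.45 and 5.58). Of the anaphase-promoting complex 6, 4 and 5 of 18 were higher, led by Ube2c, its ubiquitin-conjugating enzyme (3.70, 3.48 and 4.49). Anapc13 was lower in all 3 models (-1.27, -1.84 and -1.09), and so was Cenpx, which also serves DNA repair (-1.31, -0.83 and -1.34). Kntc1 rose by 5.31, 4.31 and 4.97 and Cenpu by 3.94, 3.70 and 4.17, all on the log2 scale and all called by edgeR.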

How the data were processed

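RNA from 15 tumors and 3 normal glands was sequenced as stranded, paired-end mRNA libraries in a pooled run. The authors trimmed the reads and deposited RSEM expected counts of 55450 genes, with no normalization and no filter. The submitters' processing notes list FastQC 0.11.5, Picard 1.119, cutadapt 1.18, RSEM 1.3.0 and DESeq2 1.28.1. A human reference is named in the methods, yet all 55450 identifiers are those of GENCODE vM21 on the mouse build GRCm38, on which positions are given. RSEM divides reads that match several genes, and 3.59% of the values of the 48 genes are not whole.

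Counts were rounded and analysed with edgeR 4.0.16 in R 4.3.3 (filterByExpr with a minimum count of 10, TMM, glmQLFit and glmQLFTest, all 18 samples, group as the only term). Benjamini-Hochberg adjusted p of 0.05 or less over 19186 genes was a call. Single genes were also compared by exact two-sided permutation tests on log2 CPM, which cannot give less than 0.00794 for 5 against 5 samples. Alternatives used DESeq2 1.42.0, limma 3.58.1 (voom with quantile normalization, the method of the study), no TMM, no filter, the log2 CPM filter of the study (6 in at least 6 samples), only the groups compared, a term for library set, and each library left out. Tables were made in Python 3.11.15 with pandas 2.3.3, numpy 2.4.6 and scipy 1.17.1. The fits were tested on simulated data, and no outcome of that is given here.

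The 48 genes and all lists were chosen with earlier results of these data known. Values in every sample are given for Cdc20, Bub1, Bub3, Mki67, Top2a, Aurka, Aurkb, Plk1, Cdk1, Ttk, Kif11 and Foxm1, for the highest and lowest gene of each role in P/Rbf against B1/P tumors, and for the extremes of the other comparisons, 26 genes in all. Depth was at least 27661173 counts in every library.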

Additional observations from a re-analysis of the deposited data

Results flagged for a closer look

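Of 144 sets of 5 tumors (48 genes in 3 models), 5 held a tumor set apart from the others, judged by the gap to its nearest neighbour as a share of the range in log2 CPM. Chance alone marks about 1 set in 20. B1/P/Rbf tumor 4 was the highest for Bub3 (167 CPM, next 119.5; share 0.746) and for Mki67 (1134 CPM, next 631; share 0.733). P/Rbf tumor 1 was the lowest for Kif2c (61.7 CPM, next 93.3; share 0.768) and for Knl1 (17.6 CPM, next 42.7; share 0.749). B1/P/Rbf tumor 1 was the lowest for Ect2 (69.8 CPM, next 86.6; share 0.748).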

How the results depend on the processing

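In each alternative run, both T121 groups exceeded B1/P tumors in median and none of the 48 genes was lower. Only 29 of the 48 genes passed the log2 CPM filter of the study, which called 7 higher in B1/P/Rbf and 14 in P/Rbf tumors (9.80% and 9.54% of 4551 genes), and against gland 29, 28 and 28 higher (19.8%, 18.1% and 18.1%) and 0 lower, since Pttg1 was not tested there. P/Rbf calls fell to 15 with only the groups compared, to 4 with the library-set term and to 5 within a library set, and B1/P/Rbf calls to 6 within a set. Leaving out 1 library gave 4 to 15 calls for B1/P/Rbf, where the fit of all libraries gave 11, beside 7.36% of all genes. Shares of all genes in the leave-one-out fits are not given. The median difference of B1/P/Rbf from P/Rbf turned from -0.40 to 0.11 with the library-set term, and the cause was not tested. Medians against gland moved to 4.45 (voom), 4.31 (no TMM) and 4.39 (library-set term) in B1/P/Rbf, 3.78 and 3.65 (voom, no TMM) in B1/P, and 4.66 and 4.00 (voom, log2 CPM filter) in P/Rbf tumors. Without TMM the median of all genes against gland moved from 0.051 to 0.42, from 0.12 to 0.47 and from 0.055 to 0.33, and the share of calls that were higher from 46.0% to 64.0%, from 49.9% to 67.8% and from 46.1% to 59.9%. With 200 bases before the start, TTTGAA was in 36.6% and both motifs in 29.3% of the 41 windows (14.4% and 5.02% of all genes).

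Over all 48 genes set against B1/P, signs turned only for uncalled values. Cenpw turned from -0.024 to 0.89 in B1/P/Rbf and from 0.29 to -0.48 in P/Rbf tumors with the library-set term, to 0.91 and -0.48 within a set, and in B1/P/Rbf tumors also to 0.33 with limma-voom, to between 0.0026 and 0.015 without TMM, without a filter and with only the groups compared, and to as much as 0.28 with 1 library left out. Cenpm in P/Rbf tumors turned to -0.064 with the library-set term and -0.066 within a set, and ranged from -0.35 to 0.33 with 1 library left out. In B1/P/Rbf tumors such ranges spanned 0 for Aurka (-0.081 to 0.45), Foxm1 (-0.10 to 0.20), Incenp (-0.043 to 0.33) and Kif11 (-0.17 to 0.18). Birc5 (0.0031) turned to -0.023 with limma-voom, to -0.029 with the log2 CPM filter and to as low as -0.17 without B1/P/Rbf tumor 2, and without B1/P/Rbf tumor 3 Kif18a turned to -0.032 and Knl1 to -0.057. Of 936 leave-one-out values of the 26 genes against B1/P, 882 kept their sign and call, 21 lost a call, 23 gained one and 10 turned sign. No paired analysis was possible because each library came from its own mouse and the labels pair none.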

Other observations

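The genes next to Spc25 on chromosome 2 were looked at after the high Spc25 value of P/Rbf tumor 4 had been seen. In that tumor Nostrin (chr2:69135800-69189330), directly beside it, read 49.9 CPM, where the other 14 tumors read 0.861 to 7.22. On the other side, G6pc2 (chr2:69211073-69227841), the next gene, had only 2 counts (0.0526 CPM, 0 to 0.0315 in the other tumors), and Abcb11 (chr2:69238282-69342616), beyond it, read 16.2 CPM against 0 to 0.507. Farther out, Stk39 read 4.82 CPM (4.64 to 97.4 in the other tumors), Dhrs9 0.342 CPM (0.223 to 4.74), Lrp2 0.0790 CPM (0 to 1.39), Cers6 5.69 CPM (3.34 to 45.9 in the other tumors) and Bbs5 5.66 CPM (3.08 to 8.58), all within the range of the others. Library P/Rbf tumor 4 thus stood apart for Nostrin, Spc25 and Abcb11 while G6pc2 was near 0 in all tumors, and the reason was not tested.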
